A study of Mus musculus with 10 samples.

Results

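Among the regions of atrial cardiomyocytes (CMs) with altered chromatin accessibility in mice carrying Tbx5G125R, 3249 of 10010 (32.5%) lay at the ends of protein-coding genes and had moderately higher counts in the mutant. They were selected on the deposited counts, as regions whose geometric mean of raw counts in Tbx5G125R libraries was above 1 and below 3 times that in Control libraries, and which lay within 1 kb of the start or the end of a RefSeq protein-coding gene span. The same window held 62 regions with a ratio of 3 or more and 63 with a ratio below 1, while 2772 regions with a moderate ratio lay inside gene bodies and 1880 between genes. Because the ratio chose the regions, every difference between the genotypes given here is a description of these 8 animals, and none was tested.

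Accessibility was measured by ATAC-seq, a sequencing assay based on a transposase that inserts adapters where DNA is accessible. Both groups were mice of 8 to 12 weeks, and the nuclei of the left and right atrium of each animal were pooled and sorted on PCM1, a protein at the nuclear envelope of CMs. The Tbx5G125R group (n = 4 animals) was heterozygous for a substitution in the T-box factor Tbx5, introduced into a mouse line with CRISPR-Cas9, and the Control group (n = 4 animals) lacked it. Control animals 1 and 3 had 2 libraries each, which were summed, so that 10 libraries gave 8 animals. Reads came from many nuclei at once, so a change in accessibility per nucleus and a change in the mix of nuclei cannot be told apart.

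Transcription of a protein-coding gene begins at its promoter, a stretch of open chromatin where general factors and RNA polymerase II assemble. Promoters of widely used genes are often rich in CpG dinucleotides and hold GC boxes bound by SP and KLF factors, CCAAT boxes bound by NF-Y, or sites of ETS factors and NRF1, whereas promoters of tissue-restricted genes more often lack CpG islands and may hold a TATA box. Tbx5 is a transcription factor of the atria and the conduction system that acts with Nkx2-5 and Gata4, and it binds through its T-box domain.

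Promoters of 6 genes are shown to set the CpG-rich and the CpG-poor kind side by side. Tbx20, Tnnt2 and Pgk1 stand for cardiac factors, the sarcomere and housekeeping genes, and Nr1d1, Dbp and Cry1 for the circadian clock, whose members are described below. Each runs 5′ to 3′ in the direction of the gene, from 250 bases before to 50 bases after the RefSeq start (GRCm38.p6), and lay wholly inside a member. Capitals mark motifs, read on either strand. These are the GC box with the letters GGGCGG and the box of NF-Y with the letters CCAAT. At Tnnt2 they are also the E-box of muscle factors with the letters CAGCTG and the TEAD motif with the letters GGAATG, and at Cry1 also the E-box of clock factors with the letters CACGTG.
Tbx20 promoter, chr9:24774254-24774553, minus strand: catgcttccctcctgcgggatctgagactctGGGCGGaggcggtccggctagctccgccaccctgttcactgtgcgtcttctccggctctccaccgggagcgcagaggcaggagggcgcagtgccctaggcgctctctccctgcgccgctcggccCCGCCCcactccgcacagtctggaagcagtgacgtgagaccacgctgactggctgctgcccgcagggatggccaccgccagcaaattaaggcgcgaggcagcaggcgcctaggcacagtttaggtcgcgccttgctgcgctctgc
Tnnt2 promoter, chr1:135836084-135836383, plus strand: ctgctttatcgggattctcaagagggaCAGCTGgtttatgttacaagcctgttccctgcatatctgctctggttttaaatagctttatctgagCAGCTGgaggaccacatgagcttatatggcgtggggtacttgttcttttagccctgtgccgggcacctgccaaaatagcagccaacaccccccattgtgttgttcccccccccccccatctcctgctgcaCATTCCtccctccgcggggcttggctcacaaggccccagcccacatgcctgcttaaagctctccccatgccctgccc
Pgk1 promoter, chrX:106186850-106187149, plus strand: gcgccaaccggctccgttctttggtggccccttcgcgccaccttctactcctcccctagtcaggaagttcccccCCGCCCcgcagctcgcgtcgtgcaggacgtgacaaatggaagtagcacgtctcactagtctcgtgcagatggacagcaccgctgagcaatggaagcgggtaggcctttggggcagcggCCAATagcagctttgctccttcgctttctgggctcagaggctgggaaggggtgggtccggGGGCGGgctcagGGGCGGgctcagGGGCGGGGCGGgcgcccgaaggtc
Nr1d1 promoter, chr11:98775328-98775627, minus strand: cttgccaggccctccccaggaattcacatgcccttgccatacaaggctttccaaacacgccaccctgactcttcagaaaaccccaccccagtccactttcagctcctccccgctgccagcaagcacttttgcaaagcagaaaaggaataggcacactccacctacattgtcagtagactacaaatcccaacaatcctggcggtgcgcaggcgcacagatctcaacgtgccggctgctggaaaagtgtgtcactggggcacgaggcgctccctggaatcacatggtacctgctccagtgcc
Dbp promoter, chr7:45704997-45705296, plus strand: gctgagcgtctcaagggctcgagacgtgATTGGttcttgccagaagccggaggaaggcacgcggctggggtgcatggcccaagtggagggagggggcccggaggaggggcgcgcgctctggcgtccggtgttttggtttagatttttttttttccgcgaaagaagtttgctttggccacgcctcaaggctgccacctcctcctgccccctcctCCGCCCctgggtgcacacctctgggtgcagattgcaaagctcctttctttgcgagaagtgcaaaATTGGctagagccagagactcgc
Cry1 promoter, chr10:85185005-85185304, minus strand: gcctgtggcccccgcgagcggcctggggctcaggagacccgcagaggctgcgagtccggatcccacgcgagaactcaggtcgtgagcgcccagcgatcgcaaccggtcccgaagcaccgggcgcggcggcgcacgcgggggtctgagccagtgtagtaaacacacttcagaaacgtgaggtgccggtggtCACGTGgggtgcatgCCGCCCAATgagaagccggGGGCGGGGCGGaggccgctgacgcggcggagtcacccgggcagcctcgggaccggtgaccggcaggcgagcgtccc
The Tbx20 promoter had a GC content of 68.3% and an observed over expected CpG ratio of 0.745. The Tnnt2 promoter had no GC box, a GC content of 55.7% and a CpG ratio of 0.226. Pgk1 carried a cluster of GC boxes just after its start, in part overlapping. Nr1d1 held none of the 12 motifs searched and had a CpG ratio of 0.404, while Dbp had a ratio of 0.665 and Cry1 of 0.979.

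The promoters of genes with a member at their start were richer in CpG than promoters at large. RefSeq gave a promoter sequence for 2606 such genes, and 15752 protein-coding genes had one in all. The median GC content was 64.7% (quartiles 59.0 and 70.0) for genes with a member and 56.3% (47.7 and 64.3) for all. A CpG ratio of 0.6 or more was found in 85.8% of the promoters with a member and in 48.9% of all promoters. It was found in 46.2% of the 26 promoters with a ratio of counts of 3 or more at their start, and in 9 of the 18 with lower counts in Tbx5G125R. Within the members, 3 of 11 sarcomere and Z-disc promoters (27.3%) were this rich in CpG, as were 7 of 9 clock promoters (77.8%) and 8 of 11 promoters of immediate early genes (72.7%). Only differing regions were listed, so open promoters without a difference could not be set beside those with a member.

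A GC box was present in 78.5% of promoters with a member and in 46.7% of all promoters, the widest gap among the motifs searched on both strands. The CCAAT box was present in 47.9% against 39.4%, the ETS motif (CCGGAAG) in 17.8% against 12.0%, the NRF1 motif (GCATGCGC) in 6.75% against 3.73% and the cyclic AMP response element (TGACGTCA) in 5.03% against 2.38%. The E-box of clock factors was present in 13.6% against 8.01%, and the CACC box (GGGTGTGG), bound by KLF factors, in 5.10% against 3.78%. Other motifs were rarer at the members. The T-box motif (GGTGTGA) was present in 3.03% against 3.72%, the MEF2 motif (TAAAAATA) in 0.921% against 2.19%, the TATA box (TATAAA) in 5.33% against 13.7%, the E-box of muscle factors in 12.7% against 14.9% and the TEAD motif in 10.8% against 13.3%. Base composition differed between the sets and was not held constant, and a match of letters is not a bound site. Here too, open promoters without a difference could not be compared.

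**Figure D1:**
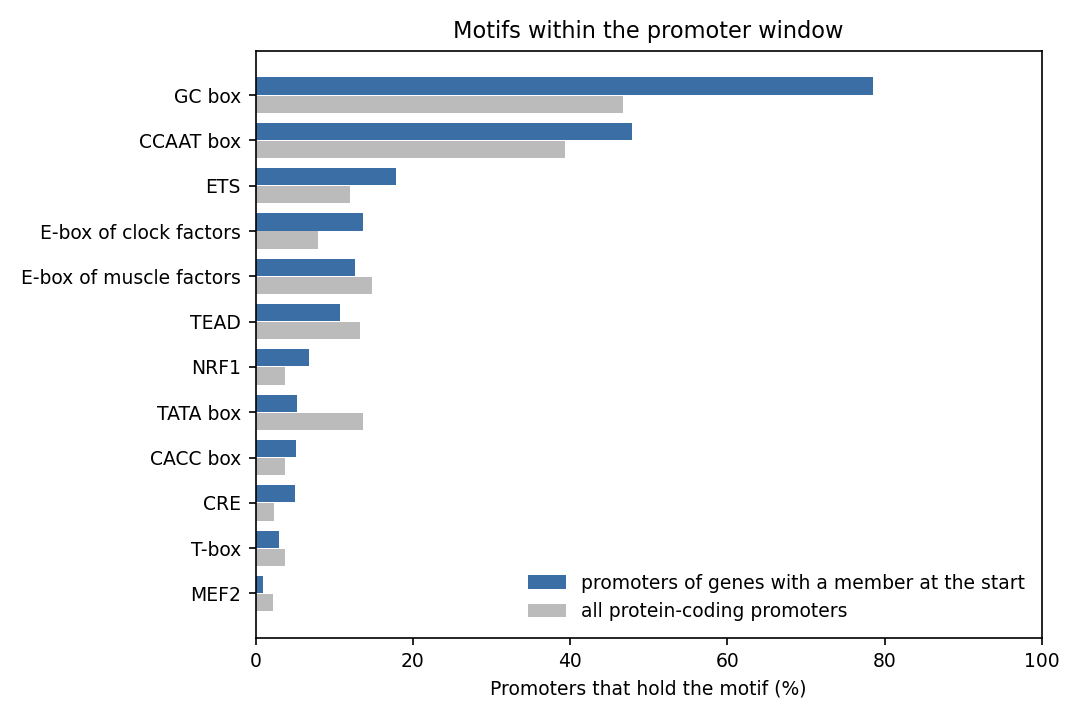
Percentage of promoters that held each motif on either strand, for the 2606 genes with a member at their start (blue) and for all 15752 protein-coding genes with a promoter sequence (grey). The GC box shows the widest gap, 78.5% against 46.7%, and the TATA box the widest in the other direction, 5.33% against 13.7%.

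Median fold changes were close to each other across the promoter classes. Members at a promoter with a CpG ratio of 0.6 or more (n = 2060) had a median log2 fold change of 0.63, and those below it (n = 349) of 0.66. Across the 12 motifs the median at promoters that held the motif ran from 0.62 (NRF1, n = 163) to 0.66 (TATA box, n = 128, and E-box of clock factors, n = 328), beside 0.64 over all 2409 gene start members with a promoter. The 73 members with a T-box motif had a median of 0.64.

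Summed over the table, counts per animal ran from 630392 in Control animal 2 to 2776475 in Control animal 3, and in Tbx5G125R animals from 1716962 to 2414261. The sums of Control animals 1 and 3 hold 2 libraries each. Single libraries ran from 630392 to 1445394 in Control, so every Control library was below every Tbx5G125R library. The members took a similar share in every animal, 52.4% to 54.3% of its counts. Control animal 2 was the shallowest, with a median of 95 reads per member against 170 to 418 in the other Control animals. The spread between libraries was small, since the SD of the log2 ratio over the members was 0.21 and 0.22 between the repeat libraries of an animal and 0.20 to 0.31 between libraries of different animals of a genotype. The depth of whole libraries is unknown. The table listed differing regions only, with no count above 995, so a gene without a member may have had an open region that is not listed.

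The markers that had a member were those of the sorted cell type. Of 14 markers of atrial CMs, 12 had a member, Actc1 and Myl4 being the others, while 0 of 37 markers of fibroblasts, endothelium, smooth muscle and pericytes, leukocytes, epicardium, nerve and fat had one. Over all 21900 protein-coding genes the share with a member was 16.4%. Of the 37 markers of other cells, 2 endothelial markers had another listed region at a gene end. The level of non-cardiomyocyte markers in the libraries cannot be read from a table of differing regions, so their part in the values was not tested.

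Values are given as scaled counts, that is raw counts divided by a factor for each animal, and log2 fold changes are Tbx5G125R over Control on log2(scaled count + 1), with ± for the SE over animals (n = 4 per group). This SE leaves out the uncertainty of the scale between the genotypes, which shifts all regions by nearly the same amount. Over the members the median scaled count was 219 in Control animals (quartiles 139 and 317) and 339 in Tbx5G125R animals (221 and 493). The median log2 fold change was 0.65 (quartiles 0.57 and 0.75), with a range from 0.38 to 1.34, and 3.85% of members had a log2 fold change of 1 or more. The median was lower than in the other classes with higher counts in Tbx5G125R. Median log2 fold changes were 0.78 for moderate regions inside gene bodies, 0.81 between genes and 1.48 for the 62 regions of higher ratio at gene ends, and members had the highest level of these classes, beside Control medians of 92.3, 83.1 and 22.6. The median SD of log2 scaled counts among animals of a genotype was 0.14 in Control and 0.13 in Tbx5G125R.

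At 3198 members (98.4%) the lowest Tbx5G125R animal lay above the highest Control animal, and 84.2% of all regions in the table showed this separation. Both shares follow from a list selected on the same animals. The count of such members was 3 with no scaling, where repeat libraries stayed summed, and 71 on the table-median scale described next.

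The sign of the change rests on the scale between the genotypes. The offset between them was fitted to the authors' deposited fold changes (0.30 on the log2 scale, or 1.23-fold), because the table gives no library totals. When the median region of the table was instead set equal in every animal (the table-median scale), the whole table had a median log2 fold change of 0.03 in place of 0.71. There the members had a median of -0.04, and 1249 of them (38.4%) were above 0. Only differing regions were listed, most of them with higher counts in Tbx5G125R, so this scale brings their median near 0 by construction. It therefore cannot decide the sign. With no scaling the median was 0.54. Repeat libraries stayed summed in that setting, which raises the counts of the Control animals that had them. The ratio that chose the members, taken over single libraries without scaling, had a median of 1.93 (not on the log2 scale). The choice of scale shifts all regions by nearly the same amount. The median on the table-median scale is given below beside that of each gene group.

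**Figure D2:**
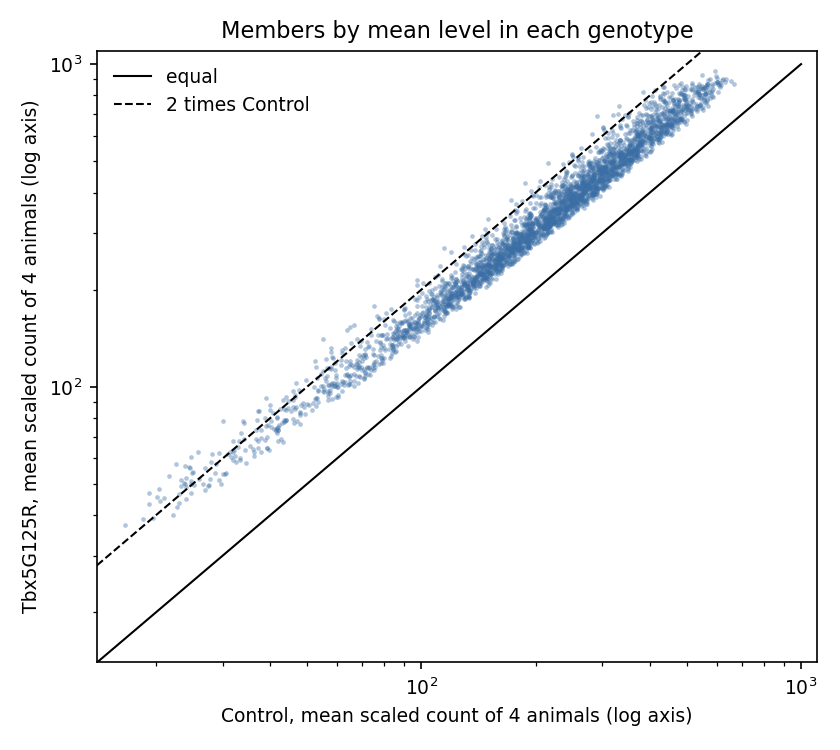
Mean scaled count of each of the 3249 members in the 4 Control animals (horizontal, log axis) and in the 4 Tbx5G125R animals (vertical, log axis), with lines for equal counts (solid) and for 2 times the Control value (dashed). The cloud lies above the line of equal counts and comes closer to it at high level, with a median log2 fold change of 0.75 in the lowest and 0.60 in the highest quintile of level, and 3.85% of members have a log2 fold change of 1 or more.

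Change and level were related among the members. From the lowest to the highest quintile of mean level, the median log2 fold change was 0.75, 0.64, 0.62, 0.62 and 0.60. The spread between animals was also widest at low level, with a median SD of log2 counts in Control of 0.21 in the lowest and 0.12 in the highest quintile. The part of counting error in the wider folds was not tested. No raw count of a library was above 995, and the part of such a bound in the folds at high level was not tested. No region at a gene end lay near the lower ratio limit of 1, between the lost Gpcpd1 region, with a ratio of 0.744, and the Rap2b member, with a ratio of 1.60.

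Around the ratio of 3 and the distance of 1 kb, the regions just inside and just outside had similar values. For the ratio this follows from the choice, since ratios and fold changes come from the same counts. The member nearest below the ratio of 3 was at Rnpepl1, with a ratio of 2.99 and a log2 fold change of 1.34 ± 0.14, followed by Exoc3l4 at 1.26 ± 0.19 and the potassium channel gene Kcnf1 at 1.22 ± 0.18. Just outside it were Dnajc7 with 1.24 ± 0.21, B3gnt2 with 1.28 ± 0.18 and Nat8l with 1.22 ± 0.14. The members with the lowest ratios were at Rap2b (0.38 ± 0.05), Capza2 (0.41 ± 0.05) and Derl1 (0.41 ± 0.06). Below the limit of 1 the nearest regions were at Gpcpd1 (-0.69 ± 0.21) and Lmod2 (-0.63 ± 0.20). By distance, members at Nr2c2ap (999 bp) and Fbxo10 (998 bp) were the farthest inside, and regions at Zfp771 (1005 bp) and Actg1 (1006 bp) the nearest outside. Their log2 fold changes were 0.62 ± 0.13, 0.87 ± 0.27, 0.71 ± 0.21 and 0.84 ± 0.14.

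Most members lay at gene starts. RefSeq promoters gave the strand of a gene for 2672 members, and 94.9% of these were within 1 kb of a start. Only a gene end was within reach for 137 members, and the strand was not given for 577. Members at a start had medians of 225 scaled counts in Control and 353 in Tbx5G125R animals and a median log2 fold change of 0.64. Those at an end only were lower, at 90.1 and 163, with a median log2 fold change of 0.81, beside 0.81 for moderate regions between genes and 0.78 for those inside gene bodies. At 299 members (11.8% of those at a start) genes on both strands began within 1 kb, and these had a median of 0.63.

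The 500 bp bin with the leading signal was centred on the start. Of 2535 members at a gene start, 66.9% had this bin centred within 250 bp of it, and the median distance was -16.5 bp, where negative values are upstream. Upstream bins made up 53.0%. Members were short, with a median width of 750 bp and a range from 500 to 13250 bp, and 24.7% consisted of a single bin. A gene end overlapped 79.9% of members.

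**Figure D3:**
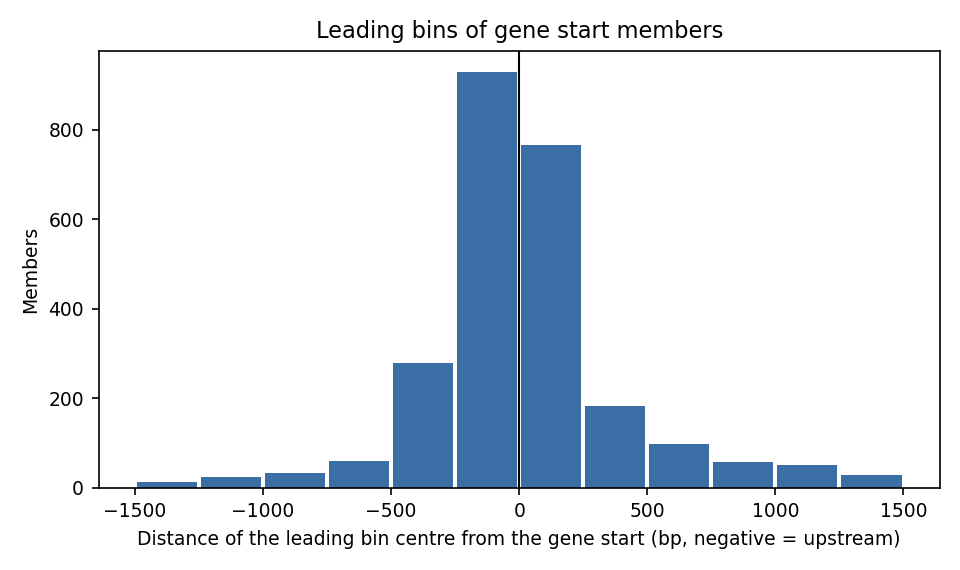
Number of members at a gene start by the distance of their leading 500 bp bin from that start, in steps of 250 bp (negative values are upstream, the line marks the start). The bins on both sides of the start hold most members, and 66.9% of bins are centred within 250 bp of it. 14 members beyond the plotted range are not shown.

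The members belonged to 3593 genes, or 16.4% of 21900 protein-coding genes. A single member was found at 3346 of them, 2 at 232, 3 at 14 and 4 at Pip5k1c. Over the autosomes and X, the share of genes with a member ran from 8.70% on chromosome X to 23.6% on chromosome 11. At 135 genes both the start and the end were covered, at 96 of these by different regions. Pip5k1c encodes a kinase that makes the lipid PIP2, and its 4 members had log2 fold changes from 0.63 to 0.85. Of the 14 genes with 3 members, those first in alphabetical order were Bad, a pro-apoptotic BCL2 family gene, Cfl1, which encodes the actin-severing protein cofilin, Dapk3, a kinase gene, and Dusp1, a stress-induced phosphatase gene, with log2 fold changes from 0.53 (Cfl1) to 1.08 (Dusp1).

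The gene groups differed widely in how many of their genes had a member. Of 14 clock genes 12 had one (85.7%), as did 13 of 17 immediate early genes (76.5%), 15 of 22 sarcomere and Z-disc genes (68.2%), 15 of 26 KLF and SP genes (57.7%), 12 of 22 cardiac transcription factor genes (54.5%), 6 of 12 housekeeping genes and 32 of 65 splicing genes (49.2%). Shares were lower for calcium handling (9 of 20), proteasome and chaperones (53 of 129), chromatin (30 of 81), ubiquitin enzymes (30 of 87), cell cycle (12 of 36), RNA polymerase II and general factors (23 of 83), the respiratory chain (29 of 106) and ribosomal proteins (38 of 159). Only the list of potassium, sodium and pacemaker channels (14 of 110, 12.7%) was below the 16.4% of all protein-coding genes. Over the 16 lists, 342 of 987 genes had a member. The share of open promoters in each list was not measured.

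**Figure D4:**
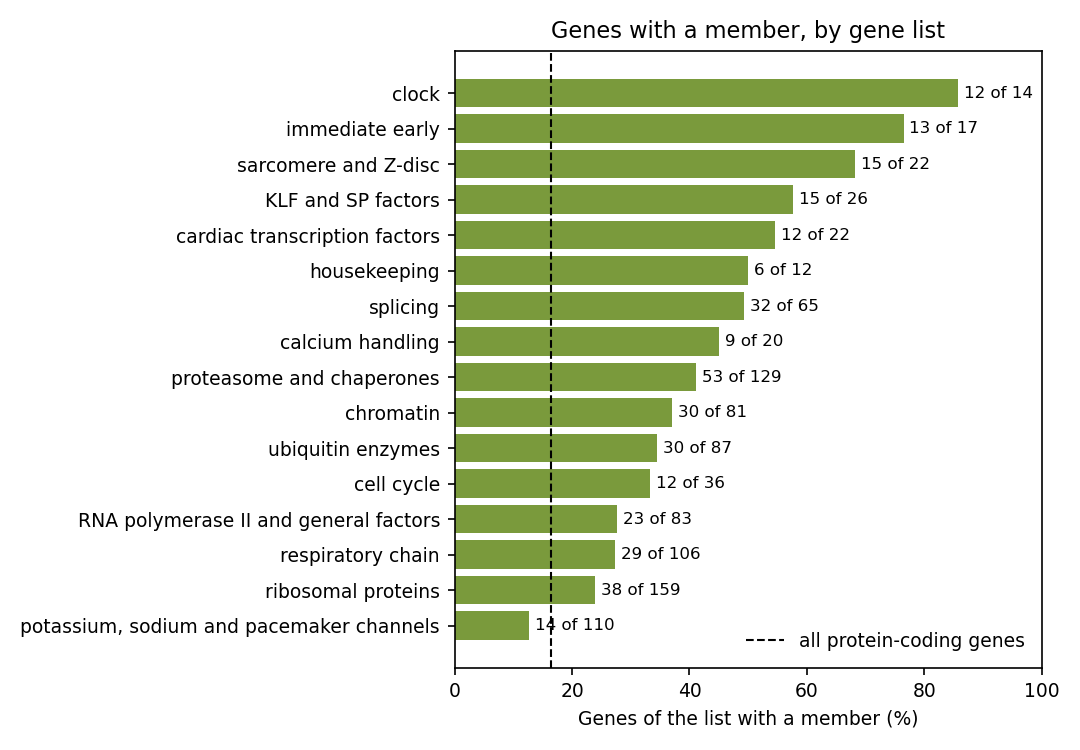
Percentage of the genes of each list that had a member, with the number of genes beside each bar and a dashed line at the 16.4% of all 21900 protein-coding genes. Clock genes are at the top with 12 of 14 and channels at the bottom with 14 of 110.

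The circadian clock had the fullest coverage and the highest median change of the 16 lists. In this clock, Arntl and Clock proteins drive the Per, Cry and Nr1d genes through E-boxes, and the products of those genes in turn restrain Arntl and Clock or their activity. All 12 genes of the list other than Arntl and Clock had a member. The 16 members had a median log2 fold change of 0.85, beside 0.65 over all members, and of 0.17 on the table-median scale, beside -0.04, on which 11 of the 16 were above 0. The genotypes did not overlap at 14 of the 16, beside 98.4% over all members. The clock members and promoters shown were chosen after their values were seen. Time of day of collection was not among the sample details used here.

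The widest change was at Dbp, which encodes a clock-controlled activator of the PAR bZIP family. Its member (chr7:45704001-45708250) held the promoter printed above and had 196, 176, 209 and 284 scaled counts in Control animals 1 to 4 and 452, 479, 547 and 492 in Tbx5G125R animals 1 to 4. Every Tbx5G125R animal was above every Control animal, and the log2 fold change was 1.20 ± 0.16 (SE). Nr1d1, which encodes the repressor REV-ERBα, had 238, 290.1, 253 and 272 in Control and 568, 527, 506 and 595 in Tbx5G125R animals (chr11:98772501-98776500), a log2 fold change of 1.06 ± 0.08. The groups did not overlap here either, as at 98.4% of all members, with the lowest Tbx5G125R animal at 506 and the highest Control animal at 290.1. Its paralog Nr1d2 (chr14:18238001-18239000) had 367, 392.3, 338 and 357 in Control and 710.3, 579, 638 and 675 in Tbx5G125R animals, a log2 fold change of 0.84 ± 0.08.

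The Per and Cry genes encode the repressors of the clock. The member at the start of Per1 (chr11:69094251-69095750) had 185, 306, 249 and 257 in Control and 485, 417, 569 and 632 in Tbx5G125R animals, a log2 fold change of 1.08 ± 0.20. Control animal 1 was the lowest and Tbx5G125R animal 4 the highest, and the groups did not overlap. Cry1 (chr10:85184751-85185750) had 172, 176, 209.5 and 155 in Control and 318, 332, 393 and 430.1 in Tbx5G125R animals (1.04 ± 0.14), and Cry2 (chr2:92433751-92434500) had 159, 193, 168 and 169.8 in Control and 293, 293, 310.1 and 370.2 in Tbx5G125R animals (0.87 ± 0.10). Per3 (chr4:151044251-151045250) had 114, 151, 136 and 139 in Control and 232, 259.8, 269.7 and 299 in Tbx5G125R animals (0.97 ± 0.11). At these members of Per1, Per3, Cry1 and Cry2, Tbx5G125R animal 4 had the highest count of its group, as it did at 30.4% of all members. The same held for the Nr1d1 member given above, but not for those of Dbp and Nr1d2. Per2 had a member at one end of its span with 115, 102, 129 and 106 in Control and 154, 246, 202 and 251 in Tbx5G125R animals (0.89 ± 0.18) and another, within 1 kb of Hes6 as well, with 0.62 ± 0.11.

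The other clock members mostly had smaller fold changes. Bhlhe40, a repressor gene, had the highest level of the list, with 454, 474, 432 and 532 in Control and 747, 713, 798 and 740.3 in Tbx5G125R animals (0.67 ± 0.07), and its relative Bhlhe41 had 0.74 ± 0.09. The PAR bZIP genes Tef and Hlf had 0.67 ± 0.15 and 0.68 ± 0.21. Hlf was an exception in that its groups overlapped, since Control animal 2 had 241 scaled counts and the lowest Tbx5G125R animal 230.2. The groups also overlapped at the second member of Dbp, at the end of the gene and near Sphk2 (0.72 ± 0.24). A second member of Per1 had 0.99 ± 0.17, and one at the end of Nr1d1, shared with Thra, 0.60 ± 0.13. On the table-median scale Bhlhe40, Tef, Hlf, the Per2 member near Hes6 and the Nr1d1 member near Thra lay between -0.08 and 0, and the other 11 above 0.

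**Figure D5:**
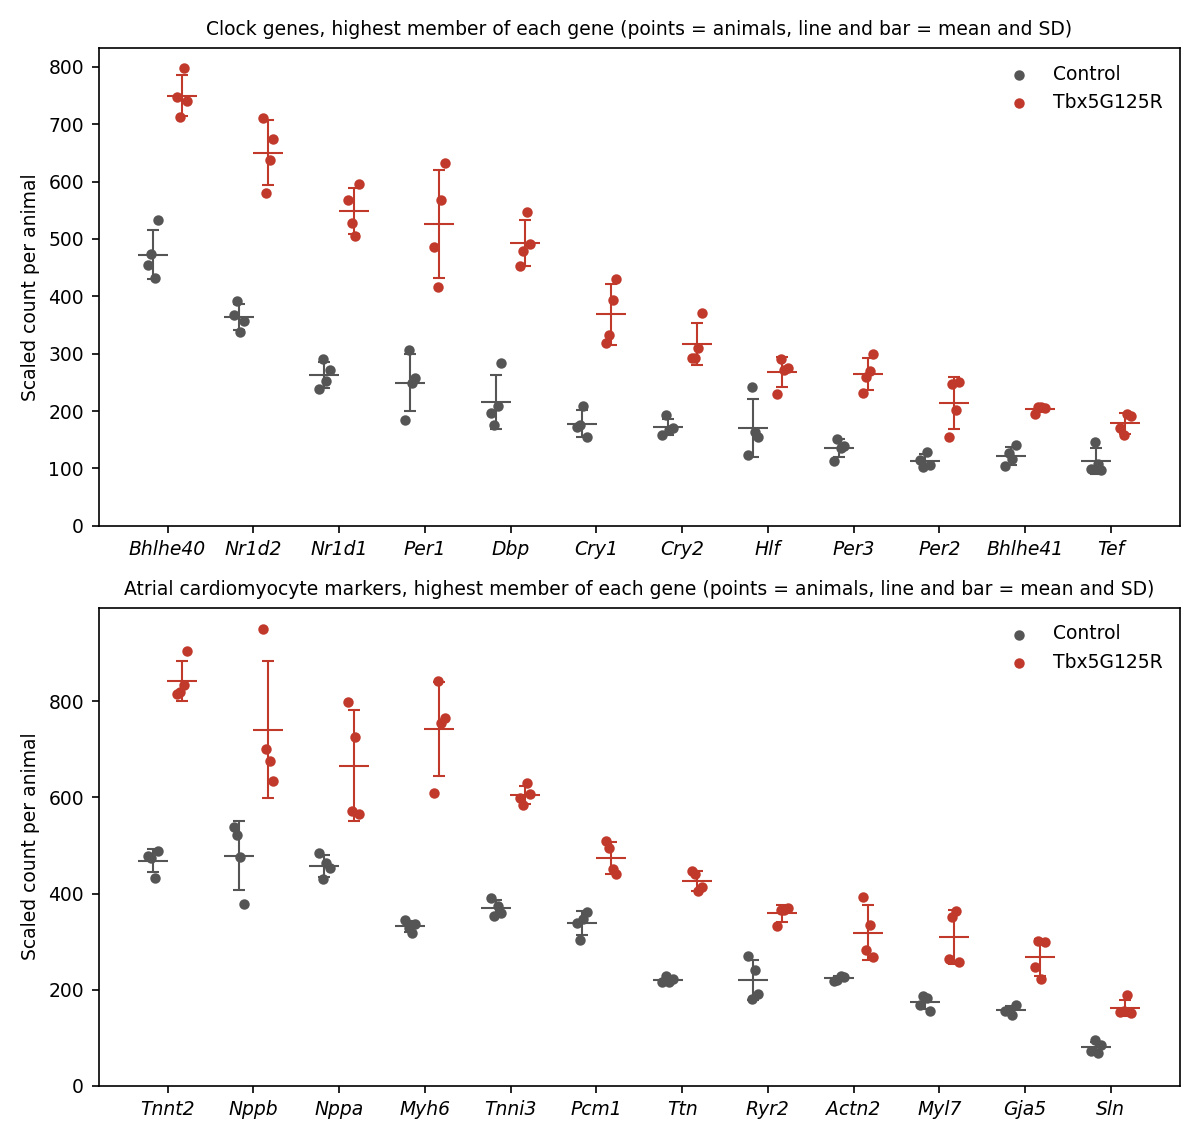
Scaled counts of each animal at the highest member of every clock gene (top) and every atrial cardiomyocyte marker (bottom) that had one, for Control (grey) and Tbx5G125R (red), with the mean and SD (n = 4). The groups overlap at Hlf alone among the genes plotted, and they do not overlap at 98.4% of all members.

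Among the atrial CM markers, the widest change was around Myh6, which encodes the α-myosin heavy chain of the sarcomere. Its region between Myh6 and Myh7 (chr14:54968751-54972750) had 285, 253, 314 and 308 scaled counts in Control animals 1 to 4 and 622, 707, 731 and 708 in Tbx5G125R animals 1 to 4. That was a log2 fold change of 1.25 ± 0.09, and the lowest Tbx5G125R animal had 308 counts more than the highest Control animal. Further Myh6 members, at its start and over its end, had 1.09 ± 0.05 and 1.15 ± 0.10, the latter 10750 bp wide. A member of Myh7, the β-myosin heavy chain gene, from chr14:54985001-54998250 had 1.07 ± 0.12.

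Tnnt2, the cardiac troponin T gene, had the highest level of the marker list over all 8 animals, whereas Nppb was the highest in Control animals alone. Its member held the promoter printed above (chr1:135835751-135836750) and had 479, 474, 433 and 489 in Control and 816, 819, 834 and 905 in Tbx5G125R animals, a log2 fold change of 0.85 ± 0.05. Ttn, which encodes the giant spring protein titin (chr2:76981251-76983000), had 216, 227, 215 and 222 in Control and 447, 442, 405 and 413 in Tbx5G125R animals (0.95 ± 0.04), with little spread in either group. Myl7, the atrial light chain gene, had 168, 186, 184 and 156 in Control and 264, 350.2, 364 and 257 in Tbx5G125R animals (0.82 ± 0.14), with Tbx5G125R animals 2 and 3 above animals 1 and 4. Tnni3, the troponin I gene, had 0.71 ± 0.04 and Actn2, the α-actinin gene of the Z-disc, 0.50 ± 0.13. Over all 18 members of the sarcomere and Z-disc list the median was 0.76, and 0.08 on the table-median scale, with 11 of 18 above 0. Myom1, the M-band gene, had 0.60 ± 0.08.

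The natriuretic peptide genes Nppa and Nppb encode hormones of the atrium. The SD of log2 counts at Nppb was similar in Tbx5G125R (0.26) and Control (0.23). It was 0.27 against 0.21 at one Nppa member and 0.25 against 0.07 at the other. Nppb (chr4:147985251-147986000) had 538, 522, 477 and 378 in Control and 951, 701, 676 and 635 in Tbx5G125R animals, a log2 fold change of 0.62 ± 0.17. Tbx5G125R animal 1 stood above the others. Nppa had members with 0.78 ± 0.17 and 0.53 ± 0.13. Gja5, the gene of the atrial gap junction protein connexin 40, had 156, 156, 147 and 169 in Control and 247, 300.2, 222 and 299 in Tbx5G125R animals (0.75 ± 0.11). Pcm1, whose protein was used for the sort, had the smallest change of the marker list (0.49 ± 0.07).

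Genes of calcium handling had 11 members with a median of 0.73, or 0.04 on the table-median scale. Atp2a2 encodes SERCA2, the pump that returns calcium to the sarcoplasmic reticulum. Its higher member (chr5:122501001-122502250) had 348, 274, 289 and 366 in Control and 581, 611, 628 and 634 in Tbx5G125R animals, a log2 fold change of 0.95 ± 0.10. Sln, which encodes sarcolipin, an atrial inhibitor of that pump, had 71.4, 95.2, 68.3 and 83.6 in Control and 154, 155, 188 and 151 in Tbx5G125R animals (1.02 ± 0.13) at one member and 0.66 ± 0.16 at another. Ryr2, the calcium release channel gene, had 269.8, 181, 240.1 and 190.1 in Control and 333, 366, 366 and 369 in Tbx5G125R animals (0.72 ± 0.14). Asph and Jph2, genes of junctional proteins, had 0.64 ± 0.09 and 0.60 ± 0.15. Among the genes without a member were Pln, Casq2, Slc8a1 and Cacna1c. At 2 of the 20 genes of the list, a region with lower counts in Tbx5G125R lay at a gene end, beside 68 of all 21900 protein-coding genes.

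Tbx5 itself had members at one end of its span. The higher of them (chr5:119796251-119797250) had 308, 323, 303 and 294 in Control and 474, 469, 607 and 456 in Tbx5G125R animals, a log2 fold change of 0.70 ± 0.10, and Tbx5G125R animal 3 was the highest. Counts per region do not show the substituted base, so they are no check of the genotype labels. The 14 members of the cardiac transcription factor list had a median of 0.66, or -0.02 on the table-median scale. Tbx20, a T-box factor of CMs, had the highest level, with 607, 534, 482 and 518 in Control and 794, 821, 747 and 793 in Tbx5G125R animals (0.56 ± 0.07). Gata6, a GATA factor, had 0.73 ± 0.09 and Esrra, a nuclear receptor of energy metabolism genes, 0.89 ± 0.12. The member at the end of Nkx2-5, a homeobox factor that binds beside Tbx5, had 1.04 ± 0.19 at the lowest level of the list, 61.9 in Control and 127 in Tbx5G125R. Srf, Mef2a and Mef2c were among the 10 genes of the list with none.

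KLF and SP factors bind GC and CACC boxes, and 15 of 26 of their own genes had a member. The 17 members had a median log2 fold change of 0.69, or 0.0086 on the table-median scale, and a Control median of 335 scaled counts, against 219 over all members. Klf13 (0.60 ± 0.09) and Klf3 (0.57 ± 0.07) had the highest level. Klf6 (chr13:5860751-5861750) had 364, 501, 420.1 and 413 in Control and 641, 745, 821 and 947 in Tbx5G125R animals, a log2 fold change of 0.89 ± 0.15, and animal 1 was the lowest and animal 4 the highest of the Tbx5G125R group.

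Immediate early genes are switched on within minutes of a stimulus, and 13 of 17 had a member. Their 16 members had a median of 0.68, beside 0.65 over all members, and of -0.0040 on the table-median scale, on which 8 were above 0. Fosl2, an AP-1 subunit gene (chr5:32135001-32136750), had 471, 469, 376 and 337 in Control and 804, 812, 806 and 894 in Tbx5G125R animals, a log2 fold change of 1.02 ± 0.13. Atf3, a stress-induced factor gene (chr1:191182251-191184000), had 392.2, 381, 384 and 393 in Control and 741, 772, 763 and 812 in Tbx5G125R animals (0.99 ± 0.03), with little spread within either group. Btg1, an antiproliferative gene, had 0.72 ± 0.07. At 2 of the 17 genes of the list, a region with lower counts in Tbx5G125R lay at a gene end, beside 68 of all 21900 protein-coding genes.

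Ion channels formed the list with the lowest share. The 16 members of 14 genes had a median of 0.68, and of -0.0015 on the table-median scale, on which 8 were above 0. Kcnj11, a subunit gene of the ATP-sensitive potassium channel, had 0.66 ± 0.07. Kcnk3, the gene of the atrial background channel TASK-1, had 353, 318, 295 and 313 in Control and 513, 502, 449 and 543 in Tbx5G125R animals (0.65 ± 0.08), and Kcng2 had 0.50 ± 0.09. Kcna5, Kcnj3, Kcnj5 and Hcn4 had no member.

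Lists of general cell functions, drawn as families of gene symbols, had medians near that of the members at large. They were not limited to genes used by all cells. Medians were 0.68 for the respiratory chain (33 members), 0.65 for ribosomal proteins (39), 0.68 for proteasome and chaperones (54), 0.70 for RNA polymerase II and general factors (24), 0.67 for splicing (34), 0.62 for chromatin (30), 0.60 for ubiquitin enzymes (32) and 0.62 for the cell cycle (12). On the table-median scale these lay between -0.08 and 0.02. Polr2a, which encodes the largest subunit of RNA polymerase II, had 324, 274, 319 and 327 in Control and 483, 538, 554 and 619 in Tbx5G125R animals (0.81 ± 0.09). Hnrnph3, a splicing regulator gene, had 0.93 ± 0.06 and the chaperone genes Hspb7, Dnajb9 and Hspa8 had 0.85 ± 0.09, 0.77 ± 0.08 and 0.75 ± 0.09. The chromatin gene Ing2 had 0.38 ± 0.07, the smallest change of any member.

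The housekeeping genes Pgk1 and Gapdh of glycolysis, often used as references, also had members. The 6 members of the housekeeping list had a median of 0.70, or 0.02 on the table-median scale. Pgk1 (chrX:106186501-106187250) had 367, 383, 340.0 and 346 in Control and 484, 449, 560.1 and 511 in Tbx5G125R animals, a log2 fold change of 0.48 ± 0.08 and of -0.21 on the table-median scale. Gapdh (chr6:125165001-125167500) had 270.4, 276, 303 and 255 in Control and 509, 422, 516 and 508 in Tbx5G125R animals (0.82 ± 0.09), and 0.13 on that scale. The 2 genes thus lay on opposite sides of 0 on the table-median scale, where Tnnt2 had 0.16 and Tbx20 -0.12.

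The 8 members of highest level had log2 fold changes from 0.38 to 0.68, beside a median of 0.65 over all members. The highest raw count of any library was 995, a value not on the scale of these scaled counts. Its part in the fold changes of these members was not tested. Rnf44, a gene with a RING finger, had 664, 573, 542 and 599 in Control and 1036, 889, 928 and 948 in Tbx5G125R animals (0.68 ± 0.08). Mplkip (0.38 ± 0.05), Gabpa (0.44 ± 0.07), Larp1b (0.51 ± 0.08), Hbp1 (0.53 ± 0.13), Camsap1 (0.63 ± 0.11), Tpt1 (0.53 ± 0.05) and Mfap3l (0.48 ± 0.07) made up the rest. Gabpa encodes an ETS factor of promoters, and its member also lay within 1 kb of Atp5j, a subunit gene of ATP synthase.

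The widest spread within a genotype was found at low level. Lrp4 had 31.9, 11.6, 46.4 and 38.0 in Control and 82.9, 66.4, 65.8 and 56.1 in Tbx5G125R animals, Ctu2 had 29.0, 9.28, 21.4 and 35.5 in Control and 67.1, 37.5, 53.6 and 41.6 in Tbx5G125R animals, and Adrb1, the β1-adrenergic receptor gene, had 38.9, 13.9, 49.96 and 31.7 in Control and 78.9, 68.3, 63.0 and 77.3 in Tbx5G125R animals. Control animal 2, the animal with the fewest reads, was the lowest at all 3, and their log2 fold changes of 1.20 ± 0.44, 1.15 ± 0.44 and 1.20 ± 0.39 had the largest errors of the members named.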

How the data were processed

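The authors deposited a table of 10010 regions (mm10, built from 500 bp bins) with raw read counts of 10 libraries. In 4 columns a count of 0 was deposited as 0.1 (26 values), an estimated count in form only, and was restored. Further columns gave the authors' geometric mean signal per group, whose ratio defined the members, and the authors' log2 fold changes and adjusted p-values. The processing notes of the submitters name BWA, bedtools and DESeq2. Versions, read shifting, duplicate removal, and whether counts cover the whole region or its leading bin are not given in the sources used here.

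Libraries were scaled by median ratio within each genotype. A single offset between genotypes was then fitted so that shrunken fold changes from the counts came closest to the authors' log2 fold changes (residual SD 0.03, 99.6% of variance). The scale is therefore not independent of the authors' comparison, whose values are not printed, and their p-values were not used. Repeat libraries were summed. SE is over animals, and no test was run because members were selected on the same contrast. No intervals for depth were computed for the share of each animal's counts that fell in the members. Genes, strands and promoters came from RefSeq GRCm38.p6, which gave a strand for 17492 of 21900 protein-coding genes, with promoters used within 1 kb of the start of the gene span. Alternatives covered distance, ratio, gene set, scaling, pseudocount, low counts, repeats and each animal. Python 3.11.15, numpy 2.4.6, pandas 2.3.3, scipy 1.17.1 and matplotlib 3.10.9 were used.

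The members and lists were chosen with earlier results of these data known. Named were the 8 members of highest level, up to 3 per list by level, the 5 genes with most members (ties in alphabetical order), the regions at the limits and the 3 of widest spread. All clock and CM marker members, the CACGTG motif, the clock promoters, Tbx5, Nkx2-5, Myh7 and the genes named as having no member were chosen after their values were seen. Some regions that this rule would name are not reported here.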

Additional observations from a re-analysis of the deposited data

Results flagged for a closer look

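In groups of 4 animals, a sample was set apart when its gap to the nearest other animal divided by the range of the group (the Dixon ratio) exceeded the critical value of Dixon's test. This was so in 10 of 236 groups tested, nearly all of them of the 116 named regions, and in 5.20% of the 6498 groups over all members, while chance gives about 1 in 20.

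The highest Control animal was set apart at Mrpl34 (ratio 0.890), at the Per2 member near Hes6 (0.985) and at Lmod2 (0.844), a region with lower counts in Tbx5G125R. The lowest Control animal was set apart at Polr2a (0.854). The highest Tbx5G125R animal was set apart at Fosl2 (0.906), at Sln (0.888) and at the Dnajc7 region just above the ratio limit (0.889). The lowest Tbx5G125R animal was set apart at Gapdh (0.919), at Derl1 (0.944) and at Ryr2 (0.903).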

How the results depend on the processing

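The number of members was 2999 with a limit of 500 bp and 3568 with 2 kb, 3291 with a ratio of counts summed per animal, 3287 with scaled counts and 3732 with every annotated gene. An upper ratio of 2 left 2110. The share at a gene start was 96.0% at 500 bp and 93.8% at 2 kb. The median log2 fold change turned to -0.0385 on the table-median scale and was 0.47 with an offset from the lost regions alone, against 0.67 from the gained regions alone (both chosen after seeing the data). The first of these changed the sign of 53 of 116 named regions, whereas no scaling, other pseudocounts, averaged repeats or leaving out any animal changed the sign of 0. The members whose animals did not overlap numbered 3 without scaling, where summed repeats stayed in, and 71 at the table-median scale. Leaving out each animal gave a median of 0.63 to 0.65 and 3200 to 3223 members without overlap. No paired analysis was possible because no result comes from a test and nothing in the labels ties animals across genotypes beyond a number. Low counts in Control animal 2 limit the members of lowest level.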
